A study of Mus musculus with 12 samples.

Results

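The 32 genes described here are mouse genes that type I interferon induces. The list was set by name, with earlier results of these data known. All 32 were among the 28694 genes of the count matrices. They were followed in single leukocytes from the coverings of the brain, the meninges, of C57Bl/6j mice at postnatal day 4. Pups had no injury (naive) or had hypoxia-ischemia (HI) 6 h earlier; HI reduces oxygen and blood flow together and models brain injury around birth. There were 2 naive libraries (naive 1 and naive 2) and 2 HI libraries (HI 1 and HI 2), each a droplet library of a 5' kit made from 12 pooled pups, 6 male and 6 female. The samples hold no sham group, so surgery, anaesthesia or handling cannot be told apart from HI itself. Because each library is a pool and only 2 stand in each group, every p-value below measures the spread between these libraries and not between single animals.

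Type I interferon binds the receptor pair Ifnar1 and Ifnar2, which activates Jak1 and Tyk2 and assembles a complex that holds Stat2 and Irf9 and enters the nucleus. That complex binds short GAAA-rich sequences in promoters and switches on antiviral genes. Some of these genes are also kept on at a low level without infection, which is known as tonic interferon signalling and is found in monocytes and macrophages. The genes were grouped by role into the IFIT family of viral RNA binders, the ISG15 system, transcription factors, RNA and DNA sensors, the OAS family, antiviral restriction factors and others.

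The binding sequence of the interferon complex contains repeats of GAAA, so promoters were searched for GAAA followed by any 2 bases and a further GAAA, on both strands, with overlapping matches allowed. Promoters in the RefSeq table (build GRCm38.p6, 250 bases before to 50 after each start) were matched for 23 of the 32 genes. Those not matched were Gm4951, Parp14, Ifi204, Ifi27l2a, Zbp1, Rtp4, Usp18, Nlrc5 and Mx1. The motif lay in at least 1 window of 14 of the 23 genes (60.9%), against 1079 of 27025 genes in the whole table (3.99%) and 1131 of its 32851 windows of the same length (3.44%). The next lines give the 250 bases before the start for 5 of the genes whose RNA fell in non-classical monocytes below, shown because they span the arrangements found. Each reads 5′ to 3′ on the gene's strand, and capitals mark matches to the motif or its reverse complement.
Ifit3 (chr19:34583279-34583528, plus strand): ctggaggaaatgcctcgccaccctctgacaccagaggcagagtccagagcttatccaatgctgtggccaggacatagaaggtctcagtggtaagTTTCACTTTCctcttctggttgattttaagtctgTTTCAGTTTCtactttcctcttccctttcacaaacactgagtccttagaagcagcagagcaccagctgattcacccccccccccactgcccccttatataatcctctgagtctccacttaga
Isg15 (chr4:156200819-156201068, minus strand): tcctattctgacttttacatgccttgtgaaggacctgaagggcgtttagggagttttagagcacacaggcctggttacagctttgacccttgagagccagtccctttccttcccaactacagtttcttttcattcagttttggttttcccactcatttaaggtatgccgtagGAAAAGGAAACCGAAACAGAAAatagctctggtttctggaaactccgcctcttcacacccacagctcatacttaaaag
Bst2 (chr8:71537473-71537722, minus strand): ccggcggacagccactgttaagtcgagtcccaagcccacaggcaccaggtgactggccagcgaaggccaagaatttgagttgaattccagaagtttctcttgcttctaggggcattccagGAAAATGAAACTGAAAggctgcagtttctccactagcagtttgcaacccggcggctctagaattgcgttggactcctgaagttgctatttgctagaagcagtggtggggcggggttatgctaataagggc
Stat2 (chr10:128270248-128270497, plus strand): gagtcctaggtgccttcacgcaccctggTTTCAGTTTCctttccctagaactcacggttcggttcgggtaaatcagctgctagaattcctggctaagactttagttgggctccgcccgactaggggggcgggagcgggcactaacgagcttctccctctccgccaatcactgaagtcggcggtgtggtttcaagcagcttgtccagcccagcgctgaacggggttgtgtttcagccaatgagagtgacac
Cmpk2 (chr12:26468965-26469214, plus strand): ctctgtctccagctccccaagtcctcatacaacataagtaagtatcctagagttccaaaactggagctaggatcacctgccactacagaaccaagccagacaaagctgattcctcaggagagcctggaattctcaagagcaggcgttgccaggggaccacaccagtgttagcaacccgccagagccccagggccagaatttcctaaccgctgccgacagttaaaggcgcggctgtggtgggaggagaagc
Ifit3, an IFIT family member, held 2 separate matches that began 156 and 122 bases before the start, both on the other strand. Isg15, a ubiquitin-like protein that is attached to other proteins, held 3 overlapping matches that began 78, 72 and 66 bases before the start. Bst2, the membrane tether that holds back budding viruses, had 2 overlapping matches at 130 and 124 bases before the start. Stat2, a subunit of the interferon complex itself, had 1 match at 222 bases, and Cmpk2, a mitochondrial nucleotide kinase, had none in this window. The neighbours Ifit1, Ifit3 and Ifit3b on chromosome 19 carried the same 10-base pair of matches, TTTCACTTTC and TTTCAGTTTC. The motif did not separate the genes that fell in non-classical monocytes from the others: it was found in 5 of 8 matched genes that fell (62.5%) and in 9 of 15 others (60%). A match describes letters and is not evidence of binding, and a window without a match says nothing about the factor.

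After filters and removal of likely doublets, 4912, 5662, 4070 and 6081 cells remained in naive 1, naive 2, HI 1 and HI 2, and the deposited libraries held 51986763 to 68543046 unique molecular identifiers (UMIs), each a count of 1 captured RNA molecule. Pairs of libraries shared 29 to 55 barcodes. Cells were assigned to types by fixed marker genes, none of which is an interferon gene, and 1335 cells that passed the gates of 2 lineages were left out. Border-associated macrophages, or BAM, which live in the meninges themselves, numbered 2983, 3751, 2855 and 4389 cells in the order above. Non-classical monocytes, which patrol vessel walls, numbered 300, 428, 178 and 360, and classical monocytes, which inflamed tissue recruits from blood through Ccr2, numbered 70, 74, 45 and 83. Microglia numbered 463 to 653 and T, NK and innate lymphoid cells 50 to 99 per library. Type names stand for cells that resemble the type by markers, and the gate for non-classical monocytes kept a median of 8 of its 9 markers per cell in both naive libraries and 7 in both HI libraries.

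In naive pups, monocytes held the highest levels of these genes, and each gene's level was compared across 8 cell types as CPM (a gene's UMIs scaled to the UMI total of that type in that library), which in a 5' count do not scale with transcript length. Classical monocytes had the highest mean for 25 of the 32 genes, and for 15 of them both naive libraries lay above both of the next type. How often genes outside this list were highest in this type was not counted. The gate for classical monocytes asked for at least 2 of 6 markers, and 87 of the 272 cells over all libraries sat at that minimum. The naive classical monocytes also held conventional dendritic cell markers, at 2297 and 1473 CPM summed over 8 genes. BAM markers there summed to 1385 and 702 CPM over 10 genes, and microglia markers to 730 and 425 CPM over 9. The part of these in the levels was not tested. Summed over all 32 genes, classical monocytes reached 3881 and 4590 CPM in naive 1 and naive 2. Non-classical monocytes reached 2697 and 3087 CPM and BAM 2653 and 2385 CPM, whereas microglia held 657 and 571 CPM and T, NK and innate lymphoid cells 670 and 465 CPM.

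**Figure D1:**
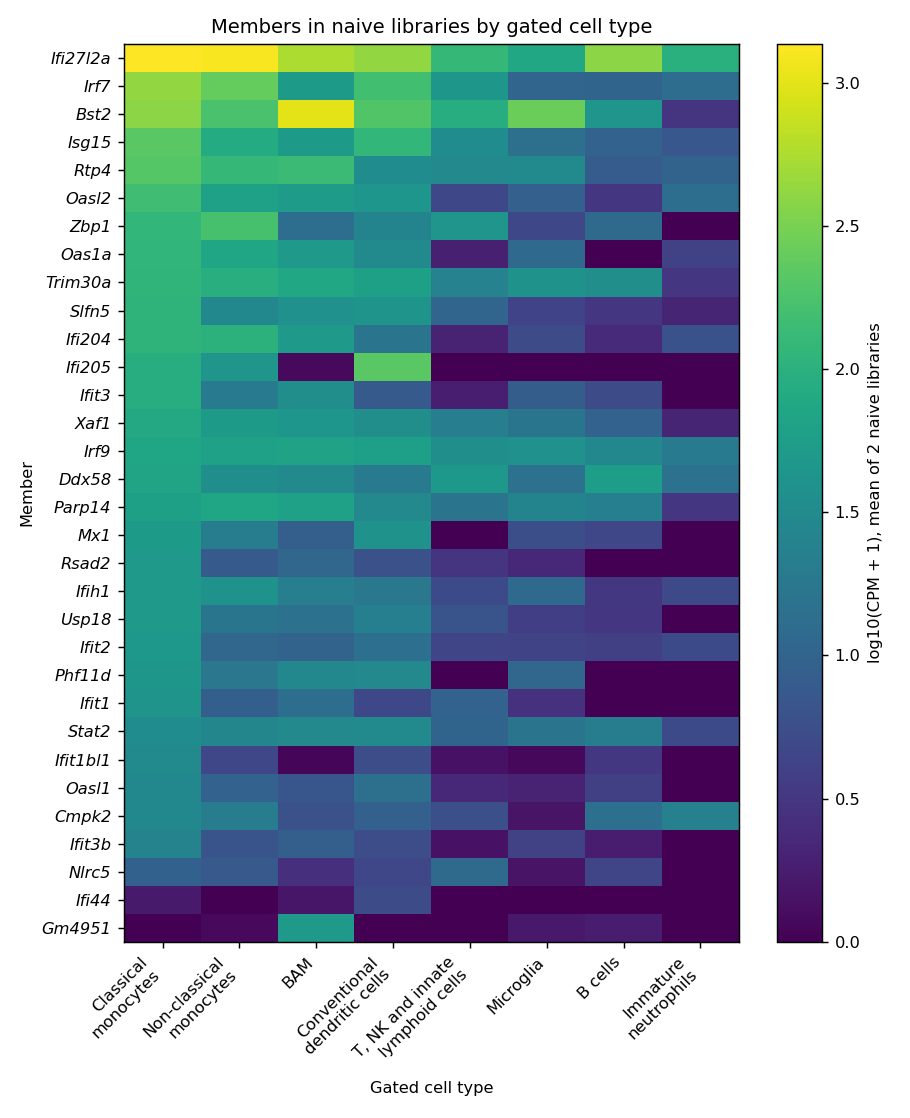
Level of each of the 32 genes (rows) in each gated cell type (columns) of the 2 naive libraries, as the log10 of the mean CPM plus 1 on a colour scale. Classical monocytes are the highest column for 25 genes, while Bst2 and Gm4951 are highest in BAM.

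The most abundant genes differed in their order of types. Ifi27l2a, a gene for a small membrane protein that interferon strongly induces, stood at 1363 ± 204 CPM (SD, n = 2) in classical monocytes and 1288 ± 68.8 CPM in non-classical monocytes, and these ranges overlapped. It stood at 563 CPM in BAM and at 72.0 CPM in microglia, its lowest type. Bst2 followed another order, with 1034 and 1002 CPM in the naive libraries of BAM and a mean of 390 CPM in classical monocytes, the next type, without overlap. Gm4951, an interferon-inducible GTPase gene, was nearly confined to BAM among the 8 types measured, with 46.2 and 48.5 CPM there and at most 0.740 CPM as a mean elsewhere.

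Irf7, the factor that amplifies interferon production, ordered the types as monocytes over macrophages: 425 ± 20.9 CPM (SD, n = 2) in classical monocytes, 246 ± 30 in non-classical monocytes and 49.4 ± 2.65 in BAM, with no overlap between these 3. Conventional dendritic cells, at 265 CPM in naive 1 and 41.7 CPM in naive 2, overlapped non-classical monocytes and BAM. Ifit3 reached 88.8 ± 3.20 CPM in classical monocytes and 34.4 ± 5.56 in BAM. Isg15 reached 216 ± 56.3 CPM in classical monocytes, 119 ± 56.2 in conventional dendritic cells and 83.7 ± 40.8 in non-classical monocytes, where naive 1 and naive 2 differed (54.9 and 113 CPM). The nucleic acid sensor Zbp1, which triggers a form of cell death, was highest in non-classical monocytes (166 ± 16.2 CPM against 118 ± 4.75 in classical monocytes, no overlap). Ifi205, of the same family as the DNA sensor Ifi204, was highest in conventional dendritic cells, at 322 and 107 CPM, and was 0.145 and 0.224 CPM in naive BAM. Members of the IFIT, OAS, Ifi200 and Trim30 families have near copies in the genome, and reads shared between copies could have been split in the deposited counts.

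Cell-to-cell spread was measured after each cell was thinned at random to 3000 UMIs, fewer than in any cell, so that deep and shallow cells were alike. The ratio of variance to mean is 1 where UMIs fall on cells by chance alone. In BAM, Bst2 had a ratio of 1.62 and 1.63 in the naive libraries. At least 1 UMI of it was seen in 91.5% and 90.7% of thinned cells. Ifi27l2a was more uneven in the same BAM, with a ratio of 5.57 and 5.77 and a UMI in 50.4% and 43.7% of cells. Irf7 in classical monocytes had a ratio of 11.0 in naive 1 and 3.02 in naive 2, so a few cells of naive 1 held much of it. In non-classical monocytes the ratio was 4.81 and 4.61 for Ifi27l2a, 1.63 and 2.06 for Irf7, and 1.08 and 1.29 for Zbp1.

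Droplets also hold free RNA, so the share of cells with a UMI was set beside that of immature neutrophils, the type lowest for many of these genes. Ifi27l2a was seen in 69% and 73.4% of thinned naive non-classical monocytes (80.7% and 80.6% unthinned) and in 25% and 5.41% of thinned naive immature neutrophils (30% and 8.11% unthinned). Median depths were 5717 and 5891.5 UMIs in the monocytes and 8732 and 11031 in those neutrophils, which were only 20 and 37 cells. Irf7 stood at 36.0% and 44.4% of thinned non-classical monocytes (57.7% and 63.1% unthinned) against 5% and 2.70% of the neutrophils (15.0% and 13.5% unthinned). These shares in the monocytes lie above those of the comparison cells, the deeper of the types.

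Summed UMIs of the 32 genes per thinned cell were also highest in classical monocytes, while non-classical monocytes and BAM overlapped. Naive classical monocytes held a mean of 14.3 and 14.2 UMIs and a variance over mean of 33.9 and 12.5. The 10% of cells with the highest sums held 43.8% and 31.9% of the summed UMIs. Naive non-classical monocytes held 7.27 and 8.79 UMIs with a variance over mean of 4.94 and 6.77, and a cell showed on average 3.9 and 4.4 of the 32 genes. BAM held 8.05 and 7.24 UMIs with a variance over mean of 4.62 and 4.15. Without Bst2 and Ifi27l2a, naive non-classical monocytes held 3.59 and 4.36 UMIs and naive BAM 2.98 and 2.77, with no overlap.

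HI was then compared with naive in non-classical monocytes, where 11 of the 28 genes tested fell and 0 rose. The genes that fell came from the IFIT family (Ifit2, Ifit3), the ISG15 system (Isg15, Usp18), the OAS family (Oasl2), the sensors (Ifi205), the transcription factors (Stat2), the restriction factors (Bst2, Mx1, Cmpk2) and Ifi27l2a. Over all genes tested in this type, 1.46% fell and 1.05% rose. All 28 fitted changes were below 0, with a median log2 change of −0.65 against 0.00 for all genes tested, and 22 of the 28 had both HI libraries below both naive libraries, against 17.5% of all genes. Summed over all 32 genes, the level went from 2697 and 3087 CPM in naive 1 and naive 2 to 1888 and 2028 CPM in HI 1 and HI 2. Counts were summed per library, where fewer cells with a gene's RNA and less RNA per cell cannot be told apart; they are separated below.

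Ifi27l2a, by far the most abundant of them, had 1239 and 1337 CPM in naive 1 and naive 2 and 745 and 869 CPM in HI 1 and HI 2. Both HI libraries lay below both naive libraries, and the log2 change was −0.71 (SE 0.10, edgeR adjusted p = 0.00028). Bst2 had 147 and 196 CPM in naive and 102 and 126 CPM in HI, again without overlap (log2 change −0.62, SE 0.15, edgeR adjusted p = 0.0236). These were the mildest of the 11 falls.

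The steepest falls were in the IFIT family and in Usp18, the protease that removes Isg15 and dampens the interferon receptor. Ifit3 had 14.6 and 23.1 CPM in the naive libraries and 4.94 and 3.53 CPM in HI 1 and HI 2 (log2 change −2.28, SE 0.39, edgeR adjusted p = 0.00183). Ifit2, a relative that binds viral RNA and slows translation, had 8.36 and 11.2 CPM in naive and 2.47 and 1.32 CPM in HI (−2.52, SE 0.52, adjusted p = 0.0094), from only 46 UMIs in naive and 6 in HI. Usp18 had 13.1 and 17.9 CPM in naive and 3.29 and 3.53 CPM in HI (−2.21, SE 0.40, edgeR adjusted p = 0.00279). None of these 3 overlapped between groups. Other IFIT genes were rarer: Ifit3b had 27 UMIs in naive and 3 in HI and Ifit1bl1 had 17 and 7, too few to be tested, and Ifit1 had 6.27 and 9.32 CPM in naive against 12.3 and 4.41 CPM in HI, with overlap (−0.16, edgeR adjusted p = 0.93).

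Isg15 itself had 54.9 and 113 CPM in naive and 52.7 and 43.3 CPM in HI (log2 change −0.91, SE 0.24, edgeR adjusted p = 0.0429); it did not pass without naive 2, the highest of the 4. Oasl2, a relative of the oligoadenylate synthetases, had 57.0 and 65.6 CPM in naive and 26.3 and 34.0 CPM in HI (−1.02, SE 0.18, adjusted p = 0.00225). Ifi205 had 45 and 40.3 CPM in naive and 23.0 and 20.7 CPM in HI (−1.0, SE 0.20, adjusted p = 0.00616). Both lay well apart between groups. Stat2 had 26.1 CPM in each naive library and 12.3 and 12.4 CPM in HI (−1.11, SE 0.25, edgeR adjusted p = 0.0184). Mx1, the dynamin-like GTPase that blocks influenza viruses, had 19.9 and 20.5 CPM in naive and 8.23 and 9.27 CPM in HI (−1.21, SE 0.30, edgeR adjusted p = 0.0277). Cmpk2 had 18.8 and 20.5 CPM in naive and 9.05 and 7.06 CPM in HI (−1.37, SE 0.31, edgeR adjusted p = 0.0173), and it too showed no overlap.

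**Figure D2:**
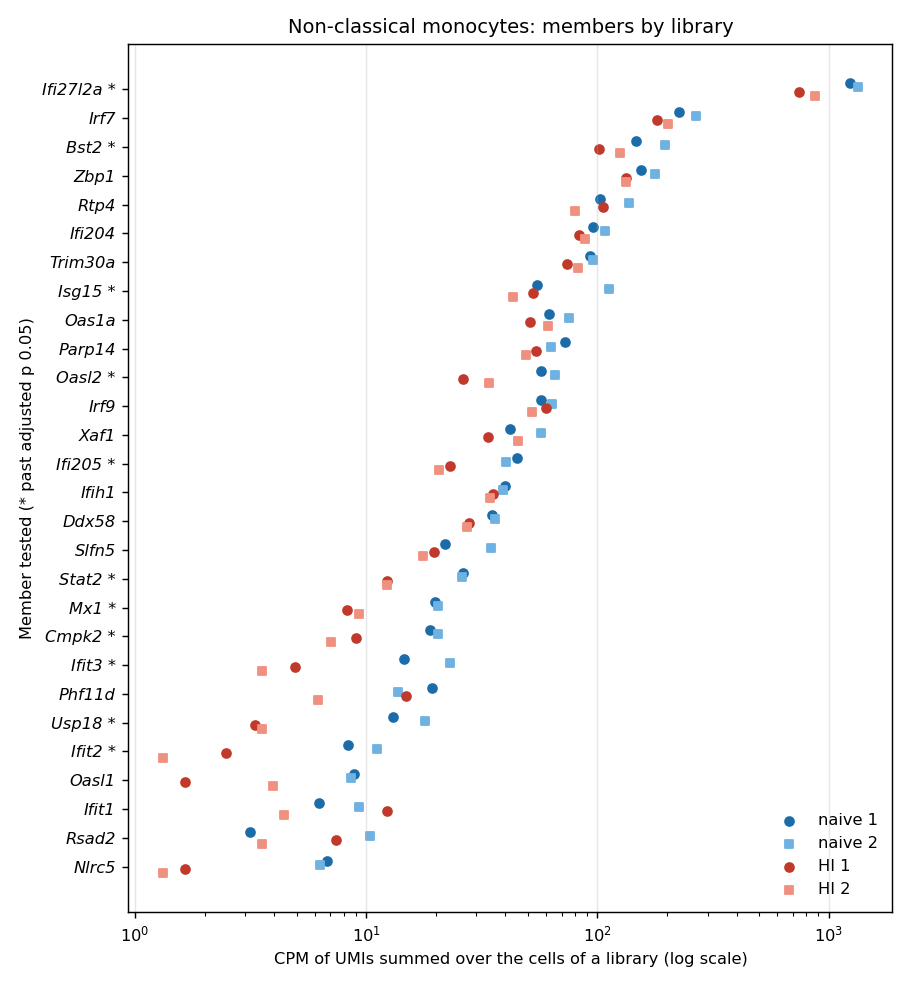
Level (CPM, log axis) in non-classical monocytes of each of the 28 genes tested, 1 point per library, naive in blue and HI in red, with an asterisk at the 11 genes that fell. Both HI points lie below both naive points for 22 of the 28 genes, while for others such as Ifit1 the points overlap.

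The other 17 tested genes did not pass. Irf7, the second most abundant, had 225 and 268 CPM in naive and 182 and 203 CPM in HI (log2 change −0.39, edgeR adjusted p = 0.107). Nlrc5, which drives MHC class I genes, had 30 UMIs in naive and 5 in HI (−2.17, edgeR adjusted p = 0.0556), and the OAS relative Oasl1 had 40 and 11 (−1.49, adjusted p = 0.117). The viral RNA sensors Ifih1 and Ddx58 had log2 changes of −0.21 and −0.40 and Zbp1 −0.36, with adjusted p of 0.712, 0.382 and 0.15. Thus the list held falls of over 4-fold beside values near no change. With an unadjusted p under 0.05 there were 22 of the 28. The share of all genes at that unadjusted threshold was not counted, here or for the other types below.

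The count of 11 depended on naive 2. Without naive 2, only Ifi27l2a, Oasl2 and Ifi205 passed, 3 genes in all, and without HI 2 there were 8, of which 7 were among the 11. Without naive 1 or HI 1 all 11 passed, with 13 and 14 genes in all. DESeq2 called 2, Ifi27l2a and Oasl2, and gave no adjusted p for 10 of the genes.

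Other marks of these cells moved beside the interferon genes, and their part in the falls was not tested. Of the 9 non-classical monocyte markers, 5 fell (Treml4, Spn, Adgre4, Eno3 and Pglyrp1), and the list summed to 6570 and 6623 CPM in naive and 5119 and 5159 CPM in HI. Among 6 classical monocyte markers Ccr2 and Vcan rose and Ly6c2 fell, and the sum over the list of 4740 and 4808 CPM in naive overlapped with 4098 and 4895 CPM in HI. Of 6 mature neutrophil markers, S100a8 rose, and the list summed to 275 and 674 CPM in naive and 580 and 1773 CPM in HI. All plasmacytoid dendritic cell markers were at 0 in every library of these cells. Cells grouped by clustering on other genes gave 13 falls, of which 10 were among the 11.

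The fall was then split into the share of cells with at least 1 UMI of a gene and the UMIs per positive cell, whose log2 ratios add up to the log2 ratio of the mean (all after thinning to 3000 UMIs). For the 11 genes that fell, the share was lower in both HI libraries than in both naive libraries in 11 of 11, and the level per positive cell in 4. The median log2 ratio was −0.96 for the share and −0.03 for the level, so that the share carried a median of 97.0% of the change (81.3% without thinning). However, chance capture alone gives nearly the same: a Poisson distribution with the observed means would lower the share by a median log2 ratio of −1.08. Most of these genes sat close to 1 UMI per positive cell already in naive, where the level per positive cell has no room to fall. For them the data do not separate fewer expressing cells from less RNA in each. The 11 were also picked for a lower summed level in these same cells, which favours a lower share. Over all 28 genes tested, the share was lower in both HI libraries than in both naive in 23 and higher in 0. The level was lower in 7 and higher in 1. Median log2 ratios over the 28 were −0.51 for the share, −0.45 for its Poisson reference and −0.07 for the level, with a median of 85.7% from the share.

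Among the 11 genes that fell, Ifi27l2a had the most UMIs per positive naive cell, with 4.70 and 5.29 UMIs. Its positive share was 69% and 73.4% in naive and 62.9% and 65.0% in HI, while its level per positive cell was 3.57 and 3.70 UMIs in HI. Both measures lay lower in HI without overlap, with a log2 ratio of −0.15 for the share and −0.46 for the level, and the share carried 25.1% of the change. Unthinned, the share was 80.7% and 80.6% in naive and 78.1% and 76.9% in HI. For this gene most of the change lay in the UMIs per positive cell and less in the share of positive cells. Whether cells with high levels became fewer or each cell held less was not tested. A Poisson distribution with the same means would also change the share little, by a log2 ratio of −0.11. The Poisson share for its naive means would be 96.1% and 97.9%, far above the observed share, so the gene was unevenly spread in both groups.

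For Bst2, at an intermediate level, the share went from 32.7% and 36.0% in naive to 24.2% and 26.1% in HI and the level per positive cell from 1.33 and 1.53 to 1.21 and 1.29 UMIs, with 69.3% of the change from the share. Isg15 was positive in 12.0% and 15.9% of naive and 8.43% and 9.72% of HI cells, and its level of 1.25 and 1.57 UMIs in naive overlapped with 1.27 and 1.26 in HI. Ifit3 was positive in 10 of 300 and 18 of 428 naive cells and in 3 of 178 and 3 of 360 HI cells. No HI cell held 2 or more of its UMIs after thinning, against 3 and 2 cells in the naive libraries. Irf7 went from 36.0% and 44.4% to 30.9% and 37.5%, with overlap, and from 1.60 and 1.69 to 1.47 and 1.46 UMIs per positive cell.

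**Figure D3:**
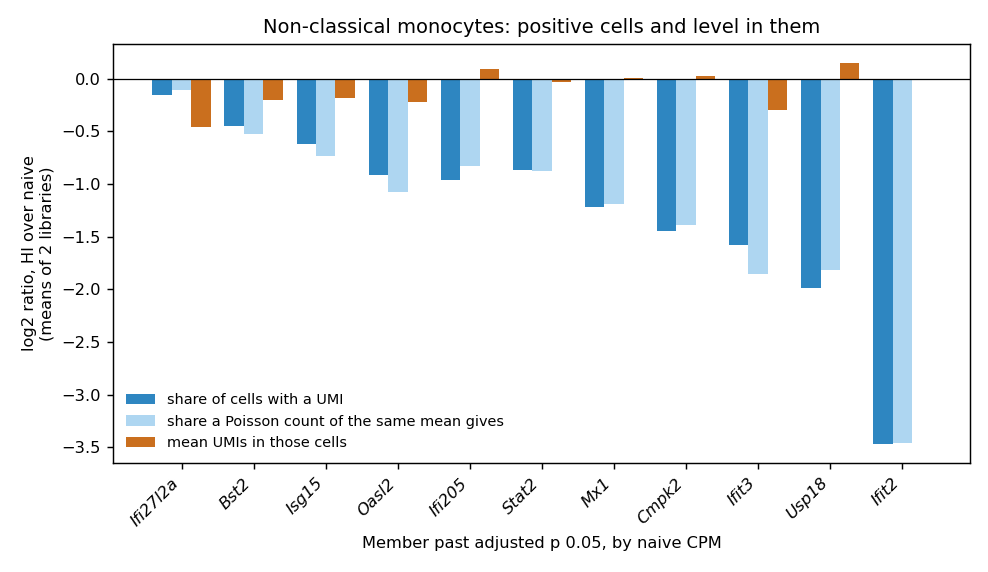
Bars give, for each of the 11 genes that fell in non-classical monocytes, the log2 ratio (HI over naive, cells thinned to 3000 UMIs) of the share of positive cells, of the share that a Poisson count of the same mean gives, and of UMIs per positive cell. The observed and the Poisson share bars are close in height, and the level bar is the longest of the 3 for Ifi27l2a alone among the 11.

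The sum over the 32 genes, which is far above 1 UMI per cell, gave a view across genes in each cell. In non-classical monocytes its mean was 7.27 and 8.79 UMIs in naive and 5.39 and 5.65 in HI, and its median 5 and 7 in naive and 4 in each HI library. Cells with none of the 32 made up 1.33% and 2.10% in naive and 7.87% and 4.44% in HI. Cells at or above 17 UMIs, the 90th percentile of naive cells, made up 8.67% (Clopper-Pearson 95% interval 5.74 to 12.4) and 13.1% (10.0 to 16.7) in naive and 3.37% (1.25 to 7.19) and 3.06% (1.53 to 5.40) in HI. The mean difference was −7.66 percentage points, both HI libraries lay below both naive, and the exact 2-sided permutation p was 0.333, the smallest that 2 against 2 libraries allow. The intervals cover counting error only. High cells alone did not carry the drop: with them left out, the mean sum still had a log2 ratio of −0.34, against −0.54 with all cells. In both HI libraries the share of cells with none of these RNAs was above, and that of high cells below, the shares of both naive libraries. Bst2 and Ifi27l2a supplied much of the sum. The other 30 genes had mean sums of 3.59 and 4.36 UMIs in naive and 2.85 and 2.91 in HI. Cells with at least 8 of those UMIs made up 8.33% and 14.5% in naive and 6.18% and 5.28% in HI. The intervals of naive 1 (5.47 to 12.1) and HI 1 (3.12 to 10.8) overlapped.

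**Figure D4:**
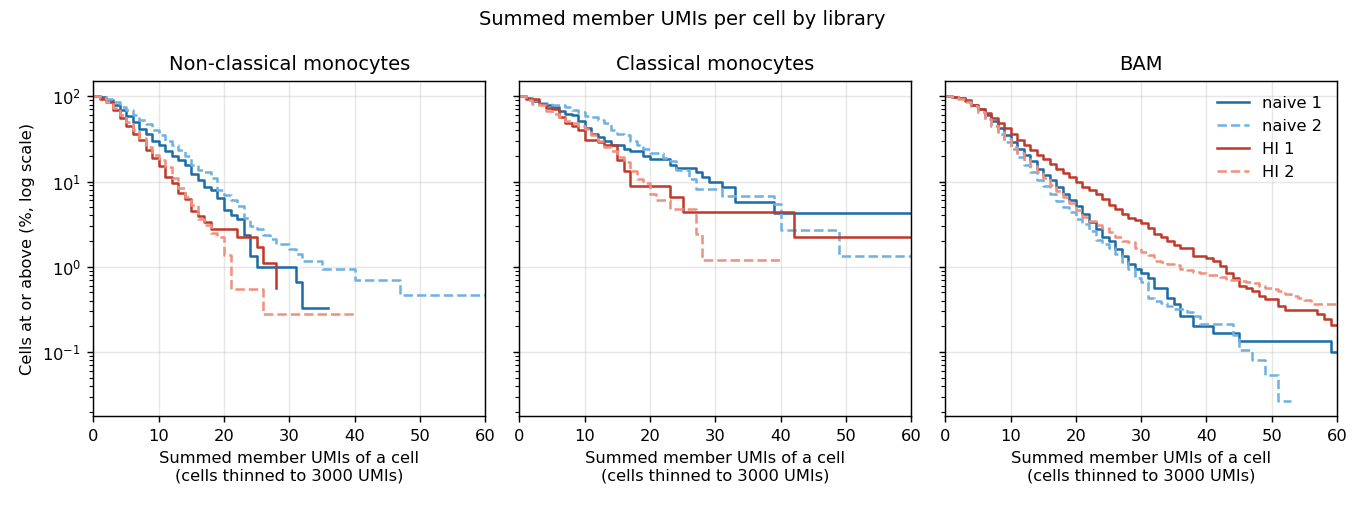
Percent of thinned cells (vertical axis) that hold at least a given number of summed UMIs of the 32 genes (horizontal axis), per library and cell type. In non-classical monocytes both HI curves run below both naive curves from 1 to 23 summed UMIs and meet them in places beyond that, while in BAM the curves cross at low sums and both HI curves lie above both naive curves from 22 summed UMIs on.

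Classical monocytes gave 0 calls among 29 genes tested with edgeR, with 9 at an unadjusted p under 0.05, and DESeq2 also gave 0 (5 at an unadjusted p under 0.05 and 1 with no adjusted p). Over all genes tested there, 0.0435% fell and 0.566% rose. Of the 29, 27 had a log2 change below 0 (median −0.79, against −0.01 for all genes), and 16 had both HI libraries below both naive, against 22.8% of all genes. The summed level was 3881 and 4590 CPM in naive and 3390 and 2554 CPM in HI. The 2 HI libraries differed for several genes. Ifit3 had 91.1 and 86.6 CPM in naive, 71.5 in HI 1 and 9.19 in HI 2. Rsad2, or viperin, which makes a chain terminator of viral RNA, had 49.2 and 49.3 CPM in naive, 29.9 in HI 1 and 0 in HI 2. Ifit1 had 41.8 and 39.9 CPM in naive, 46.6 in HI 1 and 4.59 in HI 2. HI 1 was thus below both naive libraries for Ifit3 and Rsad2 and above both for Ifit1, while HI 2 was the lowest library for all 3. HI 1 held only 45 cells of this type.

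Other genes were alike in both HI libraries. Ddx58, the sensor RIG-I, had 66.5 and 66.6 CPM in naive and 26.6 and 25.3 CPM in HI (log2 change −1.34, edgeR adjusted p = 0.0848). Bst2 had 384 and 397 CPM in naive and 218 and 230 CPM in HI (−0.79, adjusted p = 0.0779), and Irf7 had 410 and 439 CPM and then 279 and 209 CPM (−0.79, adjusted p = 0.171). These 3 did not overlap between groups, though none passed. Ifi27l2a had 1218 and 1507 CPM in naive and 1172 and 1225 CPM in HI, with overlap (−0.17, adjusted p = 0.695). In thinned cells the median log2 ratio of the 29 genes was −0.80 for the positive share, −0.90 for its Poisson reference and −0.29 for the level. For Bst2 the share overlapped, but UMIs per positive cell went from 2.175 and 2.59 in naive to 1.46 and 1.64 in HI. For Irf7 the share went from 48.6% and 58.1% in naive to 37.8% and 38.6% in HI, while the level overlapped. Without HI 1, 17 genes passed, and without HI 2, Bst2 and Ddx58 did. Cells at or above the naive 90th percentile of 27 summed UMIs made up 12.9% and 8.11% of naive and 4.44% and 2.41% of HI classical monocytes, which is 9, 6, 2 and 2 cells. Beside this, mature neutrophil markers in these cells summed to 2257 and 2427 CPM in naive and 13960 and 8649 CPM in HI, with S100a8 and Mmp8 higher by the test and Retnlg at 0. The immature neutrophil list summed to 46.8 and 63.9 CPM in naive and 369 and 341 CPM in HI, with Lcn2 higher and Ngp at 0. Conventional dendritic cell markers summed to 2297 and 1473 CPM in naive and 624 and 278 CPM in HI, with H2-Aa lower and Xcr1 and Ccr7 at 0. The part of these cell types' RNA in the values above was not tested.

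BAM went the other way for a few genes. Of 32 genes tested, 3 rose and 0 fell, against 2.38% of all genes that rose, and 14 had both HI libraries above both naive, against 23.6% of all genes. The median log2 change was 0.15, against 0.00 for all genes, and 10 had an unadjusted p under 0.05. Isg15 had 52.4 and 48.3 CPM in naive and 61.4 and 69.1 CPM in HI (log2 change 0.39, SE 0.08, edgeR adjusted p = 0.0477). Rsad2 had 10.8 and 8.92 CPM in naive and 15.6 and 23.4 CPM in HI (1.01, SE 0.20, edgeR adjusted p = 0.0404). Ifi205 had 0.145 and 0.224 CPM in naive and 0.683 and 1.10 CPM in HI, from 14 and 73 UMIs in all (2.28, SE 0.43, edgeR adjusted p = 0.0357). All 3 stood higher in both HI libraries, and all 3 calls ended without naive 1 and without naive 2.

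These rises were small or sat in few cells. Rsad2 was positive in 2.65% and 2.53% of thinned naive BAM and in 2.73% and 3.05% of HI BAM, while UMIs per positive cell were 1.30 and 1.25 in naive, 1.41 in HI 1 and 2.41 in HI 2. Cells with 2 or more Rsad2 UMIs numbered 12, 16, 10 and 40 in naive 1, naive 2, HI 1 and HI 2. Ifit1bl1 had 11 UMIs in naive BAM and 18 and 94 in HI 1 and HI 2 (log2 change 3.19, edgeR adjusted p = 0.0627). The most abundant genes did not pass: Bst2 had 1034 and 1002 CPM in naive and 906 and 946 CPM in HI (−0.12, adjusted p = 0.3), and Rtp4, a receptor transport protein that restricts flaviviruses, had 137 and 132 CPM and then 125 and 120 CPM (−0.12, adjusted p = 0.238). Ifi27l2a had 647 and 479 CPM in naive, 1274 in HI 1 and 627 in HI 2 (0.76, adjusted p = 0.175), so HI 1 stood apart and HI 2 lay within the naive range.

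Summed over the 32 genes, thinned BAM held 8.05 and 7.24 UMIs in naive and 9.47 and 7.81 in HI. The median cell had 7 and 6 in naive and the same 7 and 6 in HI, whereas the 99th percentile was 28 and 27 in naive and 41.5 and 35 in HI. Cells at or above 15 UMIs made up 11.9% and 8.82% of naive and 18.2% and 11.0% of HI BAM, with overlap (exact 2-sided permutation p = 0.667). With those cells left out, the log2 ratio of the mean sum was 0.00, against 0.18 with all cells. The mean sum lay above both naive libraries in HI 1 and within their range in HI 2. Without Bst2 and Ifi27l2a, cells at or above 7 UMIs, the naive 90th percentile of that sum, made up 11.1% and 9.65% of naive and 11.5% and 10.8% of HI BAM, and the log2 ratio of the mean sum was 0.09. Beside these values, choroid plexus markers in BAM summed to 45.4 and 47.9 CPM in naive and 5.46 and 3.04 CPM in HI, with Ttr lower by the test. RNA of neurons and glia, summed over 4 genes, was 168 and 152 CPM in naive and 71.4 and 88.8 CPM in HI, with Fabp7 and Tuba1a lower. Of 10 BAM markers, Cd163 and F13a1 rose, with log2 changes of 0.92 and 0.54. The part of these in the rises was not tested. With cells that also passed the gate for neurons kept, 4 interferon genes passed, the same 3 and Ifit1bl1.

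The difference between types was tested directly, as the interaction of cell type and HI with a term per library. The HI effect was lower in non-classical monocytes than in BAM for 18 of 31 genes tested and higher for 0, against 1.87% lower among all genes. Among the 28 genes that could be tested in each type alone, 16 were lower; the remaining 2, Ifit3b and Ifit1bl1, had too few UMIs in the monocytes. The 18 were spread over all roles. For Ifi27l2a the difference was −1.44 on the log2 scale (edgeR adjusted p = 3.79e-31), from −0.71 in the monocytes and 0.76 in BAM. For Isg15 it was −1.35, from −0.91 and 0.39, and for Ifi205 it was −3.29, from −1.0 and 2.28. Irf7 and Zbp1, which had passed in neither type alone, differed by −0.61 and −0.62 (adjusted p = 5.05e-05 and 0.00211). Without naive 2, 7 of the 18 passed. The fit shares information on spread across genes, so the smallest of these p-values say little of the spread of a single gene.

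**Figure D5:**
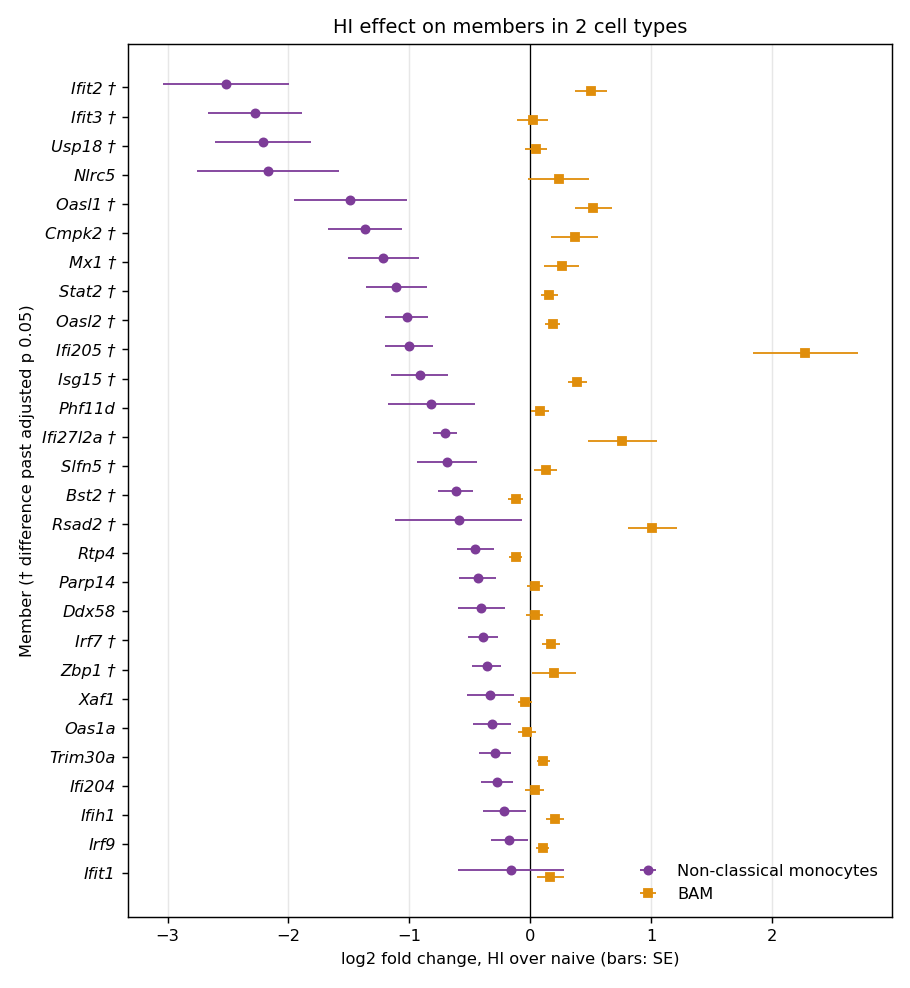
Log2 change in HI, with standard error, of each of the 28 genes tested in non-classical monocytes, beside the same gene in BAM. The monocyte values all lie below 0, from −0.16 to −2.52, while the BAM values shown lie between −0.12 and 2.28.

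Against microglia, non-classical monocytes had a lower HI effect for 5 of 30 genes (0.594% of all genes were lower), namely Ifit3, Isg15, Ifi27l2a, Bst2 and Ifi204. Classical monocytes against BAM gave 1 of 32, Irf7 (−0.95, edgeR adjusted p = 0.0465; 0.104% of all genes were lower). The other 3 pairs of types gave 0 calls in edgeR. Microglia against BAM had 6 genes at an unadjusted p under 0.05. Classical monocytes against microglia had 8, and classical against non-classical monocytes had 3. Over all genes, 1.11%, 0.149% and 0.0986% were called in that order, at the stricter adjusted p under 0.05. None of the interferon genes tested was thus shown to respond differently in these types.

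Microglia and lymphoid cells gave no calls. In microglia 0 of 26 genes passed edgeR (5 at an unadjusted p under 0.05; 0.768% of all genes were called) and 0 passed DESeq2 (2 at an unadjusted p under 0.05, 17 with no adjusted p). Rsad2 had 1.27 and 1.21 CPM in naive and 2.67 and 5.87 CPM in HI (log2 change 1.77, edgeR adjusted p = 0.0994). Isg15 had 11.7 and 14.7 CPM in naive and 15.0 and 25.9 CPM in HI (0.63, adjusted p = 0.238). Both were above the naive range in both HI libraries. The most abundant in microglia were Bst2 (294 and 239 CPM in naive, 283 and 288 in HI), Ifi27l2a (87.4 and 56.6, then 68.0 and 64.8) and Trim30a, a brake on Toll-like receptor signalling (39.5 and 37.5, then 30.4 and 42.4), and all overlapped between groups. In T, NK and innate lymphoid cells 0 of 12 passed edgeR (1 at an unadjusted p under 0.05; 0.13% of all genes were called), and 0 passed DESeq2, which gave no adjusted p for 9. Bst2 had 103 and 73.0 CPM in naive and 118 and 95.8 CPM in HI, and Ddx58 had 49.2 and 43.4 CPM and then 55.4 and 39.7 CPM, with overlap in both genes. Ifi27l2a, their most abundant with these 2, had 142 and 103 CPM in naive, 442 in HI 1 and 128 in HI 2 (1.17, adjusted p = 0.314).

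Other genes of the pathway, 72 that were measured of 74 listed, were read in the same fits. The ligand genes Ifnb1, Ifna4, Ifna2, Ifng and Ifnl2 passed the count filter in no cell type, and the 4 receptor genes were tested in each type with 0 called. In non-classical monocytes 9 of 61 fell and 1 rose (1.46% of all genes fell and 1.05% rose there). Lgals3bp, a secreted glycoprotein, had 55.4 and 57.0 CPM in naive and 33.7 and 27.8 CPM in HI (log2 change −0.94, SE 0.17, edgeR adjusted p = 0.00375). The genes that fell also included the immunoproteasome subunit Psmb9 (−0.56), the membrane protein Ifitm3, which blocks virus entry (−0.38), Trim25, which activates the sensor RIG-I (−0.75), Ifi203 (−0.72) and the peptide transporter Tap1 (−0.73). Socs3, a feedback inhibitor of cytokine receptors, rose in non-classical monocytes (0.72) and in BAM (3.07). BAM had 5 of 65 higher and 0 lower (2.38% of all genes rose there). The 5 were Socs3, the phosphatase Ptpn1 (0.41), the adaptor Tmem173, known as STING (0.44), the endosomal DNA receptor Tlr9 (0.38) and the chemokine Ccl12 (1.23). Microglia had 4 of 59 higher (0.37% of all genes rose there) and classical monocytes 2 of 63 (0.566%), with Socs3 and Ccl12 in both. The other two in microglia were Ptpn1 (0.56) and Ifitm3 (0.71). T, NK and innate lymphoid cells had 1 of 50 higher, Socs3 (0.0651% of all genes rose).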

How the data were processed

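Barcoded single-cell 5' libraries of meningeal leukocytes were deposited as raw UMI counts (whole numbers, 1 matrix per library), which the authors made with Cell Ranger 2.2.0, with Seurat 3.027 and the builds mm10 and GRCm38 also named, per the submitters' processing notes. Which step used which, and the counting options, are not given in the sources used here. Per the series' design text each of 2 runs held 1 HI and 1 naive library; the labels do not tie numbers to runs. Barcodes with under 200 genes or over 10% mitochondrial UMIs were dropped, and the highest Scrublet scores (scanpy 1.11.5) were removed at 0.8% per 1000 barcodes. Cells were typed by marker gates, set after the marker values were seen. Counts were summed per library for types with at least 40 cells in each library and fitted in edgeR 4.0.16 (quasi-likelihood test, filterByExpr, TMM, HI against naive, 2-sided, Benjamini-Hochberg over all genes at 0.05); DESeq2 1.42.0 was the alternative. Scripts were tested on simulated data. The members, the lists and the tests were chosen with earlier results of these data known. Named are all members past 0.05 and the 3 most abundant per type, and of the pathway list up to 8 per type in order of adjusted p; other members named were picked to show the range. Values of some listed genes are not reported here. Promoters are from RefSeq. Alternatives changed the scaling, the count filter, the tool, the doublet step, the gates, the thinning depth, the percentile and the libraries used.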

Additional observations from a re-analysis of the deposited data

Results flagged for a closer look

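The effect of HI differed between cell types, by the test of the difference itself in edgeR, for 24 pairs of gene and types. All differences are log2 effects in the first type minus those in the second, with a term per library. Non-classical monocytes stood below BAM for the IFIT genes Ifit2 (−3.13, from −2.52 and 0.50, adjusted p = 4.19e-06), Ifit3 (−2.41, adjusted p = 2.63e-08), Ifit3b (−2.96, adjusted p = 0.00941) and Ifit1bl1 (−4.32, adjusted p = 0.00321). Ifit3b and Ifit1bl1 had too few UMIs in the monocytes for a test there alone (27 in naive and 3 in HI, and 17 and 7), so these 2 differences rest on few molecules. For the ISG15 system the differences were −1.35 for Isg15 (adjusted p = 1.09e-13) and −2.33 for Usp18 (adjusted p = 1.06e-05), and for the transcription factors −0.61 for Irf7 (adjusted p = 5.05e-05) and −1.30 for Stat2 (adjusted p = 0.000181). Among restriction factors they were −1.73 for Rsad2, −1.51 for Mx1, −1.80 for Cmpk2, −0.54 for Bst2 and −0.87 for Slfn5 (adjusted p of 0.00839, 0.00307, 0.00306, 0.00576 and 0.0156). In the OAS family Oasl1 differed by −2.09 (adjusted p = 0.00852) and Oasl2 by −1.26 (adjusted p = 4.50e-09). Zbp1 differed by −0.62 (adjusted p = 0.00211), Ifi205 by −3.29 (adjusted p = 1.73e-05) and Ifi27l2a by −1.44 (adjusted p = 3.79e-31). Ifi205 had only 5 and 9 UMIs in the naive libraries of BAM, and Ifit2 had few UMIs in HI monocytes. Their differences therefore also rest on few molecules.

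Against microglia, the effect in non-classical monocytes was lower for Ifit3 (−2.37, adjusted p = 0.00347), Isg15 (−1.47, adjusted p = 0.000129), Ifi27l2a (−0.57, adjusted p = 0.0256), Bst2 (−0.69, adjusted p = 0.00798) and the DNA sensor Ifi204 (−1.04, adjusted p = 0.0350). For Ifi204 the effects were −0.28 in the monocytes and 0.78 in microglia, neither past the threshold alone. Irf7 had a lower effect in classical monocytes than in BAM (−0.95, from −0.79 and 0.17, edgeR adjusted p = 0.0465).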

How the results depend on the processing

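Of the fitted log2 changes of single genes, 247 kept direction and side of the threshold across alternatives, 25 lost the call, 16 gained it and 9 changed sign. The changes of sign were among values near 0 in microglia (Ifi27l2a 0.21 without naive 1 and −0.41 to 0.21 without single libraries, Bst2 −0.0602 without naive 2 and −0.0602 to 0.23, Trim30a 0.11 without HI 1 and −0.37 to 0.11) and for Ddx58 in T, NK and innate lymphoid cells (−0.0029 with no count filter, −0.0716 without naive 2, −0.22 without HI 1 and up to 0.28 without HI 2, −0.0360 with no doublet removal, −0.0338 with clusters, −0.0129 with a stricter gate). In non-classical monocytes the count of 11 became 2 with DESeq2 and 3 to 14 without single libraries, and it was 16 with the replicate number as a block. In BAM the count of 3 became 7 with no count filter, 9 with the replicate block, 5 with clusters and 0 to 6 without single libraries. Microglia went from 0 to 2 with no filter, 2 with the replicate block, 1 with a stricter gate and 0 to 3 without single libraries. Classical monocytes went from 0 to 11 with no filter, 4 with the replicate block and 0 to 17 without single libraries. The 18 differences between non-classical monocytes and BAM became 22 with clusters and 7 to 17 without single libraries, and were 18 with DESeq2 size factors and with no count filter. The change in high cells of −7.66 points became −3.36 with the 95th percentile, −9.35 with 2000 UMIs, −5.68 without Bst2 and Ifi27l2a (an alternative chosen after seeing the data) and −8.33 to −6.56 without single libraries. The 97.0% of the change in the share of positive cells became 81.3% with no thinning, 89.5% with a stricter gate and 88.1% to 100% without single libraries. The cause of these moves was not tested. The labels' numbers are not known to pair the libraries: same-numbered libraries deviated together with a correlation of 0.0571 to 0.130 across 5 types, and the block fits are given here only. A fit without a library leaves 1 sample in its group, assumed to vary like the others. Depth limits the low genes: those near 1 UMI per positive cell cannot show a lower level per cell, and 45 classical monocytes in HI 1 limit that type.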

Other observations

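The IFIT genes on chromosome 19 share promoter letters but not 1 pattern in non-classical monocytes. Ifit1, Ifit3 and Ifit3b carry the same 2 motif matches. Ifit3b had 3.66 and 7.46 CPM in naive and 1.65 and 0.441 CPM in HI, below both naive libraries as Ifit3 was, from too few UMIs for a test. Ifit1 was highest in HI 1, at 12.3 CPM, and overlapped between groups, while Ifit2, with 0 matches in either of its windows, fell. In BAM Ifit3 and Ifit3b overlapped between groups, and Ifit1 and Ifit2 were higher in both HI libraries without passing (log2 changes of 0.17 and 0.50, edgeR adjusted p = 0.441 and 0.0795).

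Gm4951, an interferon-inducible GTPase gene seen almost only in BAM among the gated types, had 46.2 and 48.5 CPM in naive and 54.2 and 49.8 CPM after HI (a log2 change of 0.15, edgeR adjusted p = 0.21). Both HI libraries lay above both naive ones, and the call was not made.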
